A study of Mus musculus with 6 samples.

Results

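The genes described here are those known to switch off or dampen G protein-coupled receptor signalling: the G protein-coupled receptor kinases Grk2, Grk3, Grk5 and Grk6, the beta-arrestins Arrb1 and Arrb2, and the 4 genes of calcium/calmodulin-dependent protein kinase II (CaMKII), Camk2a, Camk2b, Camk2d and Camk2g. They were chosen by name, as every probe set (a group of probes for a transcript) on either chip whose only annotated symbol was one of these. This gave 27 probe sets, 12 on chip A and 15 on chip B, for 9 of the 10 genes, among 35041 probe sets and 18193 genes with a single symbol. No probe set here carried the symbol of Grk2, which was therefore not analysed here.

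RNA was measured in 3 mouse populations on a pair of Affymetrix mouse chips, A and B, with 1 array per population and chip. Olfactory sensory neurons (OSNs) were sorted for green fluorescence from OMP-GFP mice, in which GFP stands in place of the coding region of Omp, the olfactory marker protein gene of mature olfactory and vomeronasal neurons. The cells left after that sort form the residual epithelium, and brain without the olfactory bulbs came from the same kind of mice. About 500000 sorted OSNs and about 2500000 residual cells were used. All 3 populations thus carry the GFP allele, the number, age, sex and pooling of the mice and the copies of the allele are not stated in the labels, and no untreated wild-type group stands beside them.

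With 1 array per group no difference below has a replicate check, no p-value is given, and values describe these arrays. Signals are MAS5 units on a linear scale. They were set to a common floor where lower (70.3 on chip A, 79.7 on chip B), and where the lower signal was at the floor the ratio is a bound, written "at least". A probe set or gene entered a comparison (is counted) where the higher of both signals was at or above the median of the chip (222 for A, 243.7 for B), and 2-fold was the size called. Array medians ranged from 194.65 to 257.7. Probe sets present on both chips gave ratios of OSNs over residual epithelium that differed between chips with an SD of 0.25 log2 units. Probe sets of the same gene had an SD of 0.62 around the mean of their gene. For OSNs over brain these SDs were 0.29 and 0.79, and for residual epithelium over brain 0.34 and 0.78. The SDs between chips leave out a mean difference, A minus B. It was 0.23 for OSNs over residual epithelium, -0.19 for OSNs over brain and -0.42 for residual epithelium over brain. Neither kind of SD stands for the spread between animals. Mature OSN markers went with the labels, with summed signals of 178052 in sorted OSNs, 5512 in residual epithelium and 5167 in brain. All 7 measured of 8, Omp among them, were at least 2-fold higher in sorted OSNs than in either other population. Of all counted genes, 12.8% were so over residual epithelium and 18.5% over brain. Omp, Cnga2, Cnga4 and Stoml3 had brain signals below the chip median, so the filter set the sign of their ratios over brain. Omp, by which the cells were sorted, was 44.4-fold higher in sorted OSNs than in residual epithelium.

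As background, an odorant receptor that has bound its ligand activates a G protein, adenylyl cyclase and a cyclic nucleotide-gated channel in the cilia. A GRK then phosphorylates the receptor, an arrestin binds the phosphorylated receptor, uncouples it from the G protein and can lead it into clathrin-mediated endocytosis. GRK3 and beta-arrestin 2 are the members best known from odorant receptor desensitisation in rodents. CaMKII is switched on by calcium-bound calmodulin and is known to phosphorylate the olfactory adenylyl cyclase, encoded by Adcy3, which lowers cyclic AMP synthesis during adaptation.

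Against residual epithelium the OSN arrays held more Camk2d and Camk2a signal and less Grk6, Arrb1 and Grk3 signal, while Arrb2 and Camk2g differed by less than 2-fold. With each gene represented by its probe set of highest mean signal rank, 3 of 8 counted members were at least 2-fold higher in sorted OSNs, against 12.8% of all counted genes, and 3 were at least 2-fold lower, against 18.7%. The higher genes were Camk2a, Camk2d and Grk5, the lower ones Grk3, Grk6 and Arrb1, and the median log2 ratio was -0.45, against -0.05 over all 12254 counted genes. By probe set, 9 of 22 counted were higher and 6 lower (13.2% and 17.9% of all counted probe sets), but 6 of these 22 belong to Camk2d and 5 to Camk2a and are not independent. Arrb1 reached the chip median in residual epithelium alone and Grk5 in the OSNs alone, so the filter set the sign of these ratios. The same held by probe set for 3 of the 9 higher ones, of Grk5, Camk2a and Camk2d, and for 4 of the 6 lower ones, of Grk3, Grk6 and Arrb1. When both signals had to reach the chip median, a setting added after the data were seen, 2 of 6 counted members were higher and 2 lower.

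**Figure D1:**
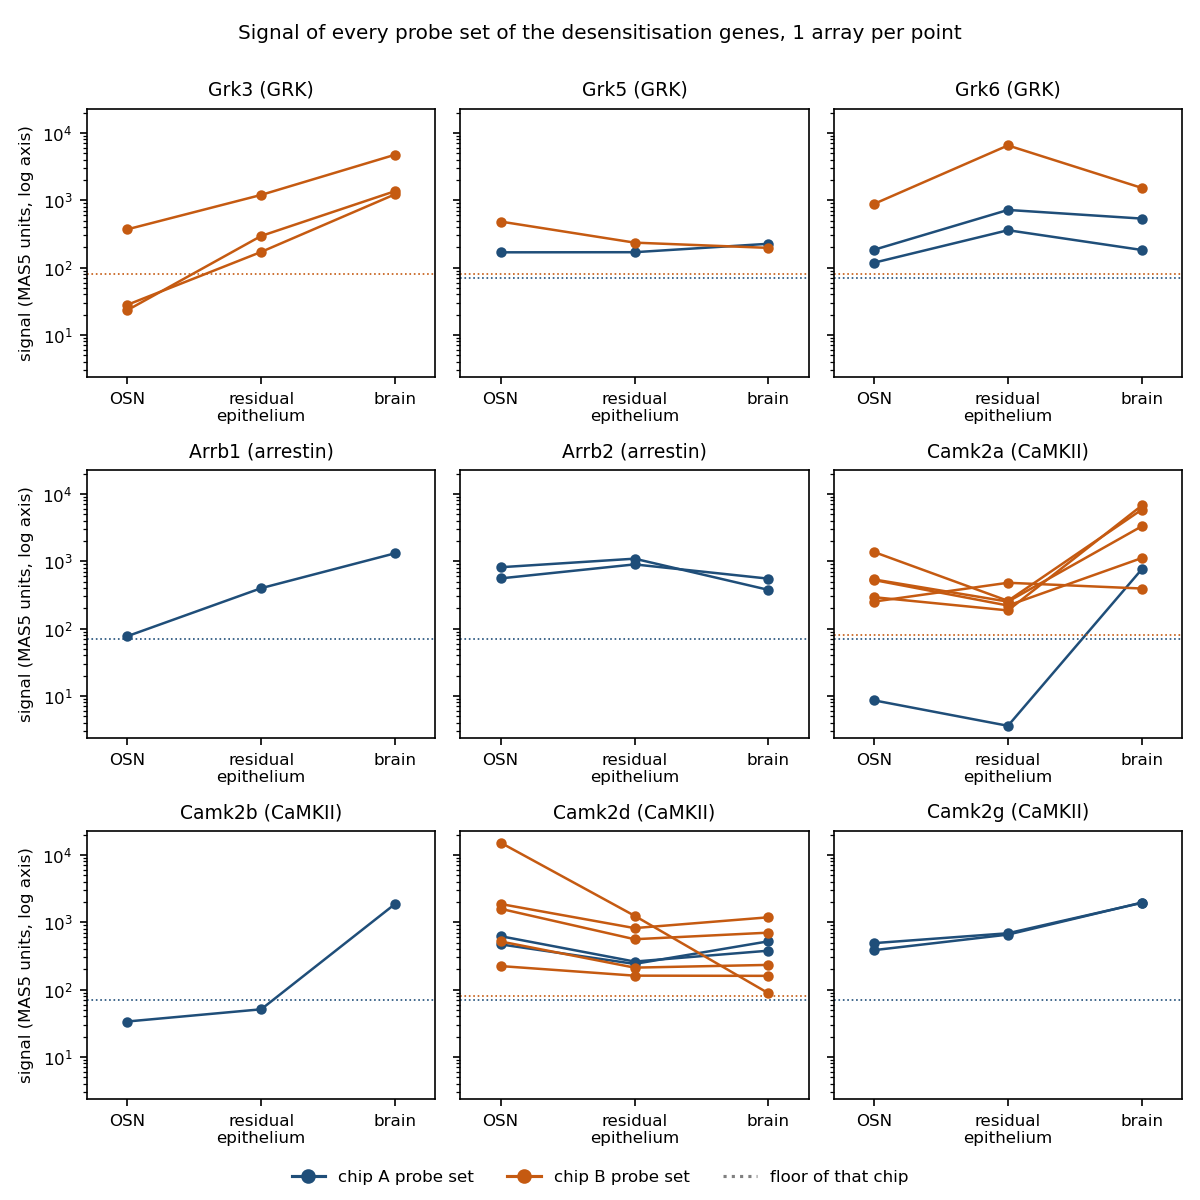
Signal (MAS5 units, log axis) of all 27 probe sets of the 9 measured genes in sorted OSNs, residual epithelium and brain. Each point is 1 array, lines join the arrays of 1 probe set, colour marks the chip and dotted lines the floor of each chip; Grk3, Arrb1, Camk2b and Camk2g are lowest in sorted OSNs and highest in brain in every probe set, whereas 6 of 7 Camk2d probe sets are highest in sorted OSNs.

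Among the receptor kinases, Grk3 encodes a cytosolic kinase that free G protein beta-gamma subunits bring to the membrane. Its probe set 1434450_s_at had a signal of 370 in the OSN array, 1202 in the residual array and 4748 in the brain array. The second, 1440801_s_at, had 23.3 in sorted OSNs, 295 in residual epithelium and 1367 in brain, and the third, 1439178_at, had 28 in sorted OSNs, 171 in residual epithelium and 1228 in brain. All 3 gave the same order, with OSNs lowest and, in the last 2 of them, below the floor. The ratio of 1434450_s_at was 3.25-fold lower in sorted OSNs than in residual epithelium and 12.8-fold lower than in brain. By 1440801_s_at Grk3 was at least 3.70-fold lower in sorted OSNs than in residual epithelium, and by the same probe set at least 17.2-fold lower than in brain. The log2 ratios of OSNs over brain spanned 0.42 across the 3 probe sets. In the last 2 of them the ratio is a bound set by the floor, so this span does not measure how closely they agree. All 3 lie on chip B and may share target sequence, so their agreement is not independent evidence.

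Grk6 encodes a membrane-bound receptor kinase that is abundant in blood cells. Its chip B probe set 1437436_s_at had a signal of 884 in sorted OSNs, 6530.2 in residual epithelium and 1527 in brain. Its chip A probe set 1451672_at had 184 in sorted OSNs, 719 in residual epithelium and 535 in brain, whereas 1450480_a_at had 118 in sorted OSNs, 359 in residual epithelium and 183 in brain. The residual epithelium was thus highest and OSNs lowest in every probe set. Against residual epithelium Grk6 was 7.39-fold, 3.91-fold and 3.04-fold lower in sorted OSNs in the order given, and the chip B ratio ranked 198th from the bottom among 9176 counted probe sets of that chip. Against brain the OSN signal was lower by 1.73-fold on chip B and by 2.91-fold with 1451672_at, so only the second reached 2-fold.

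The residual array also held much more signal of blood cell markers. Of the neutrophil and marrow markers, all 8 were measured and their signals summed to 1581 in sorted OSNs, 73659 in residual epithelium and 1006 in brain, with 3, 0 and 3 of them at or below the floor. The 7 lymphocyte markers measured of 8 summed to 707 in sorted OSNs, 12323 in residual epithelium and 871 in brain, with 3, 1 and 2 at or below the floor. The 8 myeloid markers summed to 1409.6 in sorted OSNs, 25139.9 in residual epithelium and 4595.5 in brain, with 3, 0 and 0 at or below the floor. Sustentacular cell markers, 7 of 7 measured, summed to 8689 in sorted OSNs, 15313 in residual epithelium and 4436 in brain, with 1 at or below the floor in brain. Of these, 4 were at least 2-fold lower in sorted OSNs than in residual epithelium, against 18.7% of all counted genes, and 3 were within 2-fold. Among the lower ones, Sox2 and Notch2 had OSN signals below the chip median and were counted through residual epithelium, so the filter set their sign. Cyp2g1 (3822 against 2657) and Cyp1a2 (424 against 335) had more signal in sorted OSNs, and Ermn alone gave 3246 of the brain sum. Immature OSN markers, 6 of 6, summed to 19392 in sorted OSNs, 39995 in residual epithelium and 12813 in brain, with none at the floor. Between the epithelial arrays 3 of them were at least 2-fold lower in sorted OSNs, against the same 18.7% of all counted genes, and 3 within 2-fold. Ncam1 had more signal in sorted OSNs, 7547.6 against 4551.5. The part of these cells in the residual signal of Grk6, Arrb2, Grk3 and Arrb1 was not tested. In such bulk samples fewer cells of a type and less RNA per cell cannot be told apart.

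Grk5, a kinase held at the membrane by phospholipid, gave different answers on the chips. On chip B, 1436672_at had a signal of 483 in sorted OSNs, 235 in residual epithelium and 196 in the brain array, which was 2.06-fold higher in sorted OSNs than in residual epithelium and 2.46-fold higher than in brain. The chip A probe set 1449514_at had 169 in sorted OSNs, 169 in residual epithelium and 226 in brain, and only the brain signal exceeded the chip median. The log2 ratios of OSNs over brain were 1.30 on chip B and -0.42 on chip A, a gap of 1.72. The SD of 0.79 for probe sets around the mean of their gene is smaller than the SD of such a gap. Probe sets on both chips had a mean difference, A minus B, of -0.19 in this ratio. The direction of Grk5 against brain is therefore not settled by these arrays.

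Of the arrestins, Arrb1 had a single probe set, 1460444_at, with a signal of 77.1 in sorted OSNs, 399 in residual epithelium and 1315 in brain. The OSN value lay just above the floor. Arrb1 was 5.17-fold lower in sorted OSNs than in residual epithelium and 17.1-fold lower than in brain, and 3.30-fold lower in residual epithelium than in brain. Arrb2 behaved otherwise. Its probe set 1426239_s_at had a signal of 816 in sorted OSNs, 1094 in residual epithelium and 376 in brain, and 1451987_at had 557 in sorted OSNs, 899 in residual epithelium and 552 in brain. In both, the residual epithelium was highest and the ratio of OSNs over residual epithelium was within 2-fold (log2 ratios of -0.42 and -0.69). Against brain, Arrb2 was 2.17-fold higher in sorted OSNs with 1426239_s_at and 1.01-fold higher with 1451987_at, a difference of 1.10 log2 units between probe sets. Of the beta-arrestin genes, only Arrb2 had an OSN signal above the chip median.

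CaMKII assembles as a holoenzyme from the products of its 4 genes. Camk2a and Camk2b are known as the forms of brain neurons, and Camk2d and Camk2g are used by many tissues. The 4 genes separated in these arrays: Camk2d was highest in sorted OSNs, Camk2a was highest in brain and higher in sorted OSNs than in residual epithelium, Camk2b was above the floor in brain only, and Camk2g was highest in brain and lowest in sorted OSNs.

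Camk2d had 7 probe sets, and the OSN array gave the highest signal in 6 of them. The chip B probe set 1459457_at, which represents the gene in the counts, had a signal of 1869 in sorted OSNs, 820 in residual epithelium and 1187 in brain. The chip A probe set 1422659_at had 622 in sorted OSNs, 261 in residual epithelium and 379 in brain. Both were more than 2-fold higher in sorted OSNs than in residual epithelium (2.28-fold and 2.38-fold) and less than 2-fold higher than in brain (1.57-fold and 1.64-fold). The other probe sets gave OSN signals of 224 to 1586 against 161 to 560 in residual epithelium, except for 1456844_at. That probe set had a signal of 15209 in sorted OSNs, 1251 in residual epithelium and 88.3 in brain, the last just above the floor. It was 12.2-fold higher in sorted OSNs than in residual epithelium and 172-fold higher than in brain. Its brain signal was below the chip median, so it was counted over brain through the OSNs and the filter set the sign of that ratio. Its ratio over residual epithelium, where both signals exceeded the chip median, ranked 78th from the top among 9176 counted probe sets of chip B. Of the 6 counted probe sets, 5 were at least 2-fold higher in sorted OSNs than in residual epithelium and 1427763_a_at was 1.95-fold higher, with log2 ratios from 0.96 to 3.60. Against brain, 3 of 6 were at least 2-fold higher and the range was -0.15 to 7.43. The other 5 counted over brain ran from -0.15 to 1.18, so 1456844_at stood apart from them in that ratio. The Camk2d transcript that it detects was not looked up.

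Promoter windows of Camk2d and Camk2b are shown because these genes of one kinase had opposite patterns, Camk2d highest in sorted OSNs and Camk2b above the floor in brain only. They run from 250 bases before to 50 bases after the gene start in RefSeq on GRCm38.p6, at chr3:126596701-126597000 on the plus strand for Camk2d and chr11:6065699-6065998 on the minus strand for Camk2b. Capitals mark each GC box, GGGCGG or its reverse complement CCGCCC.
Camk2d: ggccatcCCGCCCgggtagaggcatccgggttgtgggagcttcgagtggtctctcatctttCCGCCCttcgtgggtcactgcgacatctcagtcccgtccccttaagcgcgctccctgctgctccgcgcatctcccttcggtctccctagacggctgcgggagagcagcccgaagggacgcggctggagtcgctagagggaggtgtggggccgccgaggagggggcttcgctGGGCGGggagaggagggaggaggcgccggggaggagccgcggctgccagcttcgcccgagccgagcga
Camk2b: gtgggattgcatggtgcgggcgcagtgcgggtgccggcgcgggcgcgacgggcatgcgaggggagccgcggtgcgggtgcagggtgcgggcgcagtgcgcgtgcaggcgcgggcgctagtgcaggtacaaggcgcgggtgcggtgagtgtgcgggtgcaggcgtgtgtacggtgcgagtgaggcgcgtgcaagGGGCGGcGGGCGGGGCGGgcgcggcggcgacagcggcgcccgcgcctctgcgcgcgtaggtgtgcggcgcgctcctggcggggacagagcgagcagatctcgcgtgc
Each window held 3 matches to the GC box, which was present on either strand in 35.7% of 32851 promoter windows of the same length, and matches can overlap. The GC content was 70.3% for Camk2d and 77.3% for Camk2b, against a median of 52.7%. Neither window held the cAMP response half-site TGACG (20.8% of all windows), the E-box CANNTG (72.3%) or the TATA box TATAAA (13.6%) on either strand. Windows for 4 of the 10 genes were in the table. A match or its lack describes these letters only.

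Camk2a had 6 probe sets, which disagreed within the epithelium. The representative, 1457311_at, had a signal of 1373 in sorted OSNs, 259 in residual epithelium and 5860.4 in brain. The chip A probe set 1452453_a_at had 8.6 in sorted OSNs, 3.6 in residual epithelium and 763 in brain, so both epithelial arrays were below the floor. The brain array was highest in 5 of the 6. The exception was 1441734_at, with 252 in sorted OSNs, 480 in residual epithelium and 394 in brain. In OSNs over residual epithelium, Camk2a was 5.31-fold higher with 1457311_at, 2.39-fold with 1443876_at and 2.14-fold with 1437125_at. The remaining counted probe sets were within 2-fold, 1442707_at with a log2 ratio of 0.65 and 1441734_at with -0.93. Against brain, Camk2a was lower in sorted OSNs with every probe set, from 1.56-fold with 1441734_at to 23.0-fold with 1442707_at. In residual epithelium over brain the representative probe set was 22.7-fold lower.

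Camk2b had 1 probe set, 1448676_at, with a signal of 33.6 in sorted OSNs, 51 in residual epithelium and 1869 in brain. Both epithelial signals were below the floor, so Camk2b was not counted between them. It was at least 26.6-fold lower in sorted OSNs than in brain, and by the same bound in residual epithelium. The bound cannot be set against the ratio of another probe set.

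Camk2g had 2 probe sets, both on chip A. The first, 1423942_a_at, had a signal of 490.2 in sorted OSNs, 687 in residual epithelium and 1946 in brain, and 1423941_at had 386 in sorted OSNs, 656 in residual epithelium and 1962 in brain. Both had OSNs lowest and brain highest. OSNs over residual epithelium was within 2-fold, 1.40-fold and 1.70-fold lower, and OSNs over brain was 3.97-fold and 5.09-fold lower. The spans between these probe sets were 0.28 and 0.36 log2 units. The SDs of 0.62 and 0.79 for genes in general are taken around the mean of a gene and are not on the scale of a span.

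Against brain as a whole, 2 of 9 counted members were at least 2-fold higher in sorted OSNs, Grk5 and Arrb2, where 18.5% of all counted genes were. The lower members were 5 of 9, namely Camk2b, Arrb1, Grk3, Camk2a and Camk2g, where 21.1% of all were. The median log2 ratio of the members was -1.99, and that of all 12380 counted genes was 0.05. By probe set, 5 of 25 were higher and 13 lower, against 17.5% and 22.4% of all. Of the 13 lower probe sets, 6 had an OSN signal below the chip median and so were counted through brain: those of Camk2b and Arrb1, 1439178_at and 1440801_s_at of Grk3, 1451672_at of Grk6 and 1452453_a_at of Camk2a. Of the 5 higher ones, 3 had a brain signal below the chip median and were counted through the OSNs: 1436672_at, which represents Grk5, and 1456844_at and 1460630_at of Camk2d. The filter set the sign of all these ratios. When both signals had to reach the chip median, 3 of 6 counted members were lower and 1 was higher. Brain neuron markers went the same way: the 8 measured of 9 summed to 6372 in sorted OSNs, 2496 in residual epithelium and 36649 in brain, with 4, 3 and 0 at or below the floor, and Snap25 alone gave 5338 of the OSN sum. Brain glia markers did so too, with sums of 5327 in sorted OSNs, 5401 in residual epithelium and 58186 in brain. The OSN, residual and brain arrays had 1, 1 and 0 of them at or below the floor. All 7 measured of 8 were at least 2-fold lower in sorted OSNs than in brain, against 21.1% of all counted genes. Mbp, Mog, Gfap, Aldh1l1 and Cnp had OSN signals below the chip median and were counted through brain, so the filter set the sign of their ratios. Slc1a2 alone gave 4519 of the OSN sum of glia markers, against 780.5 in residual epithelium. The other 2 counted between the epithelial arrays, Cnp and Slc1a3, were at least 2-fold lower in sorted OSNs. Cnp was counted there through residual epithelium alone, so the filter set its sign. The part of neurons and glia in the brain signal of Camk2a, Camk2b, Camk2g, Arrb1 and Grk3 was not tested.

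**Figure D2:**
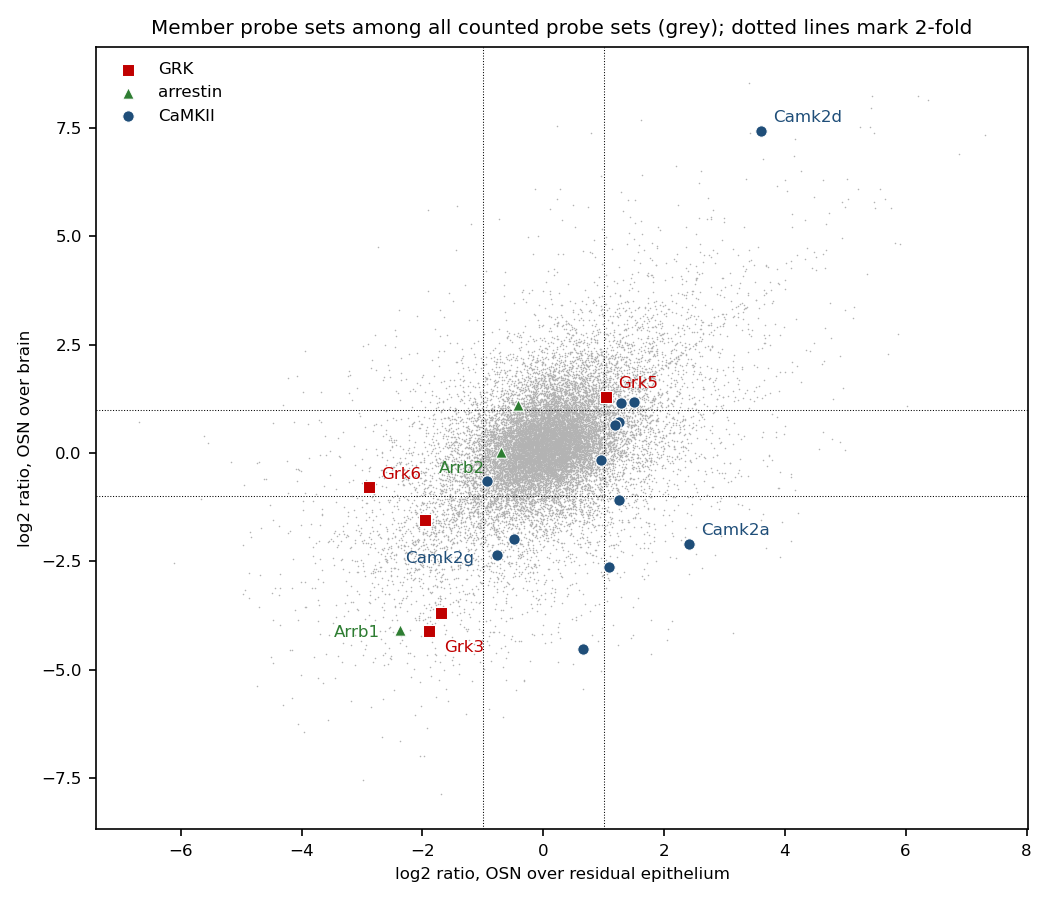
Log2 ratio of OSNs over residual epithelium (horizontal) and of OSNs over brain (vertical) for every probe set counted in both comparisons, with member probe sets coloured by family and dotted lines at 2-fold. Grk3, Grk6 and Arrb1 lie at the lower left, most Camk2a probe sets at the lower right, and the Camk2d probe set 1456844_at at 3.60 and 7.43; where an OSN signal was at the floor the plotted ratio is a bound.

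Between residual epithelium and brain, 2 of 8 counted members were at least 2-fold higher in residual epithelium, Grk6 (4.28-fold) and Arrb2 (2.91-fold), against 22.5% of all counted genes. Another 5 were lower, Grk3, Arrb1, Camk2a, Camk2b and Camk2g, against 18.9%, of which Camk2b passed the signal filter through brain only. The median log2 ratio was -1.61 for the members and 0.12 for all 12916 counted genes. Grk3 was 3.95-fold and Camk2g 2.83-fold lower in residual epithelium, and Camk2d was within 2-fold (log2 ratio of -0.53) by its representative. Probe sets of Grk6 differed in size, from 0.43 to 2.10 log2 units, and only the highest of 3 reached 2-fold. That one is on chip B, and probe sets on both chips had a mean difference, A minus B, of -0.42 in this ratio. By probe set, 3 of 24 counted were at least 2-fold higher in residual epithelium and 13 lower, each against 21% of all counted probe sets, and 1 and 5 of these were counted through one array. The 3 comparisons share arrays, so their ratios are not independent.

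The few genes whose representative probe set on the same chip had the nearest pair of ratios (OSNs over residual epithelium and over brain) were looked up for Grk3 and Arrb2. For Grk3 they were Cracdl, Slc35f3 and Garnl3, at distances of 0.0751, 0.185 and 0.252 log2 units among 5101 counted genes of chip B, of which 15 lay within 0.5. For Arrb2 they were Rbmx2, Sf3a3 and Krtcap3, at 0.00757, 0.0266 and 0.0368 among 5795 of chip A, of which 269 lay within 0.5. Likeness over 3 arrays is weak, and the Arrb2 pattern was common. None was sought for Camk2b, whose epithelial signals were below the floor.

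The partners of these genes were taken from 8 lists. Of the genes of G protein beta and gamma subunits, the proteins that bring Grk2 and Grk3 to the membrane, 11 were counted in sorted OSNs over residual epithelium. Among them 3 were at least 2-fold higher and 5 lower (median log2 ratio of -0.74), against 12.8% and 18.7% of all counted genes. Gng13, the gamma subunit of OSNs, had a signal of 13388 in sorted OSNs, 1127 in residual epithelium and 1329 in brain, 11.9-fold higher in sorted OSNs than in residual epithelium, but its 2 counted probe sets ran from 1.29 to 3.57 log2 units. Gnb1 was also higher in sorted OSNs, with 14521 in sorted OSNs, 6027 in residual epithelium and 7053 in brain. Gnb2, measured by 1 probe set, had 138 in sorted OSNs, 2447 in residual epithelium and 3188 in brain and was 17.8-fold lower in sorted OSNs than in residual epithelium. The beta subunits Gnb1 and Gnb2 had ratios of opposite sign, but the OSN signal of Gnb2 was below the chip median. Gnb2 was counted through the other array, so the filter set its sign. The same held for Gng12, another of the lower genes. Against brain, 3 of 13 were higher in sorted OSNs and 9 lower (median of -1.85), against 18.5% and 21.1% of all counted genes. Of the lower genes there, Gnb2, Gng7, Gng11 and Gng12 were counted through brain only, so the filter set the sign of their ratios.

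Genes of GRK inhibitors and neuronal calcium sensors also went both ways within the epithelium, with 2 of 6 higher in sorted OSNs and 1 lower (median of -0.24), against 12.8% and 18.7% of all. Vsnl1, which encodes the calcium sensor visinin-like 1, had a signal of 1956 in sorted OSNs, 155 in residual epithelium and 7116 in brain, 12.6-fold higher in sorted OSNs than in residual epithelium. Pebp1, whose product binds and inhibits Grk2 when phosphorylated, had 810.2 in sorted OSNs, 6896 in residual epithelium and 9751 in brain, 8.51-fold lower in sorted OSNs than in residual epithelium. Both had a second probe set of the same direction. By their representatives the higher genes, Vsnl1 and Hpcal4, had residual signals below the chip median. They were counted through the OSNs, so the filter set the sign of their ratios. Rcvrn, encoding recoverin, the calcium-dependent inhibitor of the rod receptor kinase, lay below the floor in all 3 arrays. Against brain, 6 of 7 counted genes of this list were lower in sorted OSNs and none higher (median of -3.03), against 21.1% and 18.5% of all. Of the lower genes, Hpca was counted through brain only.

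**Figure D3:**
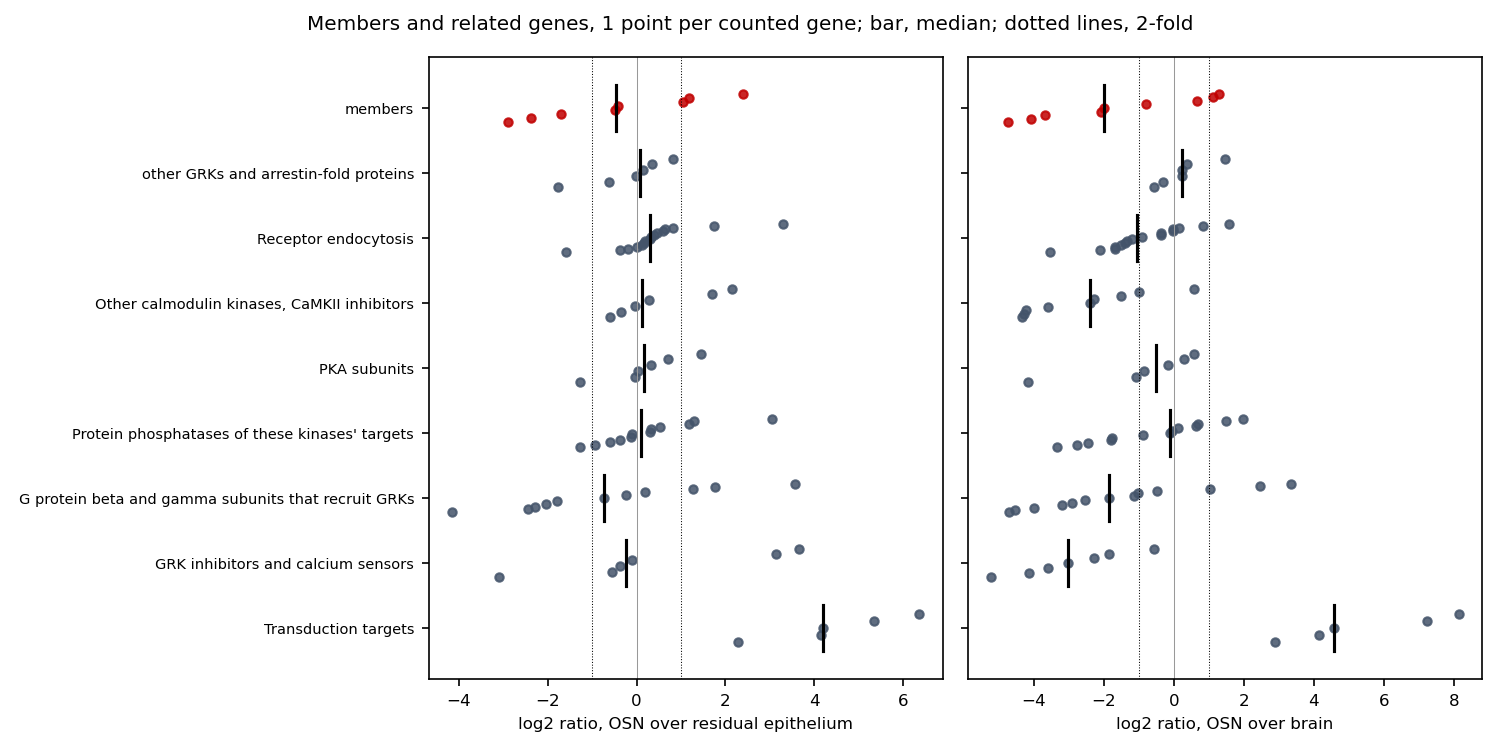
Log2 ratio of OSNs over residual epithelium (left) and of OSNs over brain (right) for the members and the 8 lists of partner genes. Each point is a counted gene by its representative probe set, black bars are medians and dotted lines mark 2-fold; the 5 transduction targets all lie to the right of 2, while the members spread from -2.89 to 2.41 on the left panel.

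The list of other calmodulin-dependent kinases and CaMKII inhibitors had 6 counted genes within the epithelium, 2 higher in sorted OSNs and none lower by their representatives (median of 0.12), against 12.8% and 18.7% of all. Another probe set of Camk1d, whose representative was not counted, had an OSN signal below the floor and a log2 ratio of -2.08, which is a bound. Camk2n2, a small protein inhibitor of CaMKII, had a signal of 4253 in sorted OSNs, 958 in residual epithelium and 8551 in brain and was 4.44-fold higher in sorted OSNs than in residual epithelium. The related inhibitor Camk2n1 had 6661 in sorted OSNs, 8482 in residual epithelium and 32223 in brain, within 2-fold between the epithelial arrays. Camk1, another calmodulin-dependent kinase, was 3.24-fold higher in sorted OSNs than in residual epithelium, and Camk1g had a log2 ratio of -0.60. Against brain 8 of 9 counted genes were lower in sorted OSNs and none higher (median of -2.39), where 21.1% and 18.5% of all were. The exception was Camk1, at 0.59 by its representative and -0.33 by its other counted probe set. Of the lower genes, Camk1d, Camk1g, Camkv and Pnck had OSN signals below the chip median. They were counted through brain, so the filter set the sign of their ratios. The calmodulin genes themselves lacked a probe set of single symbol and are not described here.

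Of the 16 endocytosis genes, for clathrin, its AP2 adaptor, dynamins and others, 2 were higher and 1 lower in sorted OSNs than in residual epithelium (median of 0.31), against 12.8% and 18.7% of all. Dnm1, the neuronal dynamin, had a signal of 4963 in sorted OSNs, 508 in residual epithelium and 11318 in brain and was 9.77-fold higher in sorted OSNs than in residual epithelium. Git2, which binds GRKs and acts on small GTPases of the ARF family, was 3.02-fold lower by its representative, but its 4 counted probe sets ran from -1.59 to 0.44 log2 units. Against brain 8 of 16 were lower in sorted OSNs and 1 higher (median of -1.05), against 21.1% and 18.5% of all. Arf6, an ARF GTPase of receptor endocytosis, was the higher gene, with 2410.2 in sorted OSNs, 2758 in residual epithelium and 806 in brain.

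Of the 6 counted genes in the list of other GRKs and arrestin-fold proteins, 1 was lower in sorted OSNs than in residual epithelium and none higher (median of 0.07), against 18.7% and 12.8% of all. The lower gene was Txnip, an arrestin-fold protein of glucose and redox control, with a signal of 350 in sorted OSNs, 1201 in residual epithelium and 433 in brain. Arr3, the cone arrestin, had the highest ratio of this list, with signals of 417 in sorted OSNs, 236 in residual epithelium and 357 in brain, a log2 ratio of 0.82 over residual epithelium. Grk1, the rod kinase, was below the floor in all 3 arrays, and Grk4 was at or near it (71.3 in sorted OSNs, 29.5 in residual epithelium, 72 in brain). Sag, the rod arrestin, and Grk4 were below the chip median throughout.

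Protein kinase A, which is activated by cyclic AMP and can also phosphorylate receptors, was measured by all 6 of its subunit genes. The catalytic subunit gene Prkaca had a signal of 6422 in sorted OSNs, 2349 in residual epithelium and 4328 in brain, 2.73-fold higher in sorted OSNs than in residual epithelium, and its other counted probe set had a log2 ratio of 0.88. The regulatory subunit gene Prkar2b had 535 in sorted OSNs, 1293 in residual epithelium and 1135 in brain, 2.42-fold lower in sorted OSNs than in residual epithelium, with 3 counted probe sets from -1.27 to -0.66 log2 units. By their representatives Prkacb, Prkar1a, Prkar1b and Prkar2a had log2 ratios of 0.70, 0.32, -0.02 and 0.03, but counted probe sets reached 1.46 for Prkacb and -1.97 for Prkar1b. Of the 6 genes 1 was thus higher and 1 lower, against 12.8% and 18.7% of all. Against brain, Prkar1b was 18.1-fold and Prkar2b 2.12-fold lower in sorted OSNs by their representatives, and the other 4 were within 2-fold, where 21.1% of all counted genes were lower. Probe sets of Prkar2b ran from -1.09 to -0.24 log2 units there.

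Of 12 counted protein phosphatase genes, 3 were higher in sorted OSNs than in residual epithelium, 1 was lower and the median was 0.10, against 12.8% and 18.7% of all. Ppp1r1a, the gene of protein phosphatase inhibitor 1, had a signal of 2060.3 in sorted OSNs, 249 in residual epithelium and 519.6 in brain, 8.29-fold higher in sorted OSNs than in residual epithelium and 3.97-fold higher than in brain. Ppm1f, a phosphatase that acts on CaMKII, had 414 in sorted OSNs, 1009 in residual epithelium and 2267 in brain, 2.43-fold lower in sorted OSNs than in residual epithelium. Against brain 2 of 13 were higher in sorted OSNs and 5 lower (median of -0.12), against 18.5% and 21.1% of all. In both comparisons Ppp3cc was counted as higher through the OSNs alone. Over brain, Ppp1r1b was counted as lower through brain alone, so the filter set these signs. By contrast, all 5 transduction targets were higher in sorted OSNs than in residual epithelium and in brain by their representatives. The shares of all counted genes were 12.8% and 18.5%, and the medians of the targets were 4.19 and 4.56. Adcy3, Cnga2, Cnga4 and Gnal are also among the mature OSN markers above, so most of this list repeats those markers. Adcy3, the cyclase that CaMKII phosphorylates, was at 4.19 and 4.56, and Pde1c, a calmodulin-activated phosphodiesterase, at 2.29 and 2.88. Cnga2, Cnga4 and Gnal were at 4.17, 6.37 and 5.36 over residual epithelium. The brain signals of Cnga2 and Cnga4 were below the floor, so over brain they were counted through the OSNs and the filter set the sign. Counted probe sets ran from 0.55 to 5.04 for Pde1c and from 1.17 to 5.36 for Gnal.

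Of 25 member ratios in the 3 comparisons, 23 kept their sign under every alternative that gave a value, and the exceptions were Grk5 in OSNs over brain and Camk2d in residual epithelium over brain. The alternatives reuse the same arrays and mostly the same probe sets, so a kept sign is not a replicate check. Where the filter set the sign, as for Arrb1 and Camk2b over brain, keeping it adds nothing. Grk3, Grk6 and Arrb1 were at least 2-fold lower in sorted OSNs than in residual epithelium under every alternative that gave a value, and Camk2a and Camk2d at least 2-fold higher. No alternative represented Camk2a by its probe sets 1442707_at or 1441734_at, with log2 ratios of 0.65 and -0.93. Grk5 was 2-fold higher under 9 of 10, and Arrb2 and Camk2g were within 2-fold under all 12. Against brain, scaling the arrays on the 100 probe sets that both chips carry moved the median of all genes by -0.28 log2 units. Under it, and with the median over probe sets, neither Arrb2 nor Grk5 reached 2-fold over brain. Camk2d depended on the choice of probe set: a higher floor or a pseudocount made 1456844_at its representative.

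**Figure D4:**
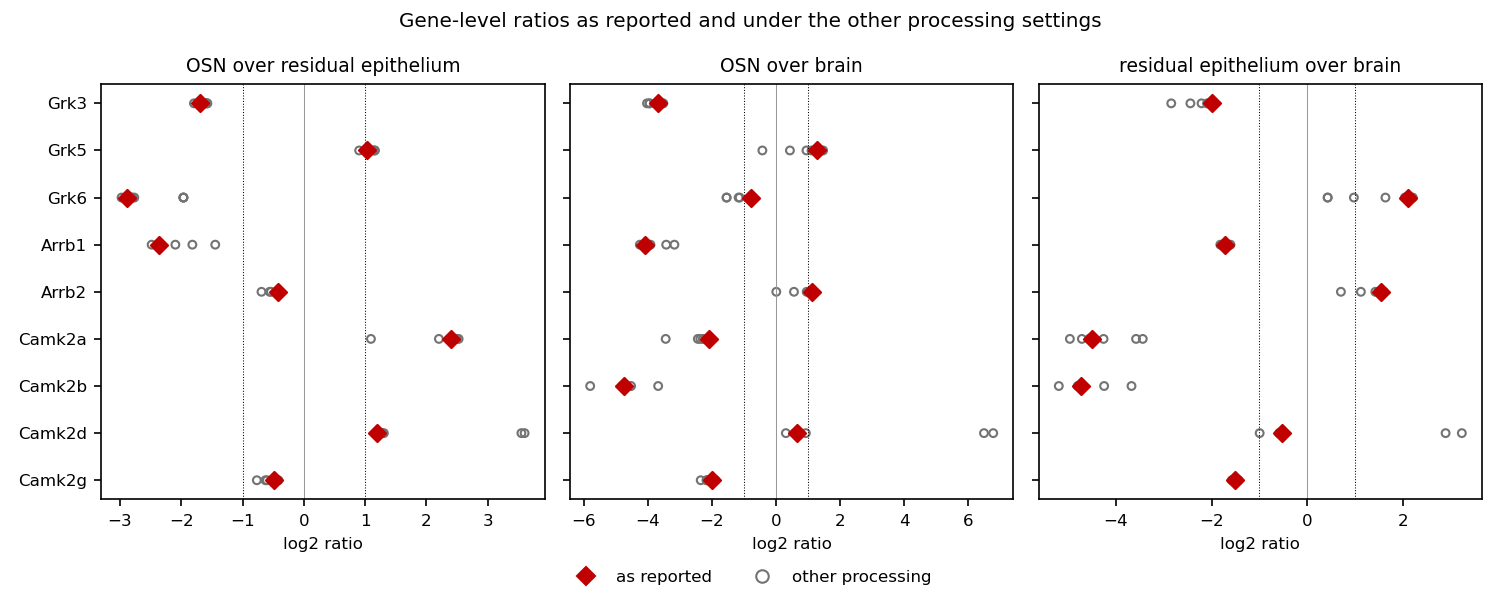
Gene-level log2 ratios of the 9 measured members in the 3 comparisons, as reported (diamonds) and under each other processing setting that gave a value (open circles), with dotted lines at 2-fold. Grk3 stays between -1.79 and -1.57 in sorted OSNs over residual epithelium. In sorted OSNs over brain Camk2d, reported at 0.66, moves between 0.31 and 6.79.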

How the data were processed

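Gene expression was measured on 6 arrays, 1 per population and chip. The values deposited by the authors are signals per probe set, a 1-colour intensity on a linear scale. Per the submitters' processing notes they came from MAS5, which is named, without a version, for 5 of the 6 arrays and is missing for the chip A array of brain. The mean of values between percentiles 2 and 98 lay between 499.6 and 499.9 on every array, so the arrays had been scaled to a common level, which lowers other signals where a few transcripts dominate. The sources used here give no background correction or detection calls. Precision is limited by the number of arrays.

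There were 22690 probe sets on chip A and 22575 on chip B, 64 of them controls on each. Of 45137 others, 35041 had a single symbol in the platform annotation, 936 several and 9160 none; 34837 were updated through Entrez identifiers to RefSeq symbols of GRCm38.p6. Floors were the lower quartile and filters the median of each chip's 3 arrays, controls included. The probe set whose mean log2 signal had the highest percentile on its chip stood for the gene. Ratios were taken within a chip.

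The members and the lists of genes were chosen with earlier results of these data known, and all members are described. From each list the text names the highest and lowest counted gene in OSNs over residual epithelium and all genes of lists of 6 or fewer. Gnb1, Camk2n1, Camk1, Camk1d, Camkv, Pnck, Gng7, Gng11, Gng12, Hpca, Hpcal4, Ppp3cc, Ppp1r1b, Arf6, Rcvrn, Grk1, Grk4 and Sag were named after their values were seen. So were the markers Stoml3, Snap25, Cyp2g1, Cyp1a2, Ermn, Sox2, Notch2, Ncam1, Mbp, Mog, Gfap, Aldh1l1, Slc1a2, Slc1a3 and Cnp. Nearest patterns used the Euclidean distance of the 2 OSN log2 ratios. The computation was tested on simulated arrays. Alternatives were floors at percentiles 10 and 40, a pseudocount of 50, no filter, a filter at percentile 75, median centring, quantile normalization, scaling on shared probe sets, and other choices of probe set. The software was Python 3.11.15 with pandas 2.3.3, numpy 2.4.6 and, for figures, matplotlib 3.10.9.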

Additional observations from a re-analysis of the deposited data

How the results depend on the processing

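Of 78 member counts under the alternatives, 63 stayed within 1.5 times the reported count, and of 299 gene ratios 1 changed sign after being at least 2-fold. The number of members higher in OSNs than in residual epithelium was 1 on chip A alone, which counts 5 members. The number higher in OSNs than in brain was 1 with the filter at percentile 75, on chip A alone, on chip B alone and without probe sets of shared suffixes, and 0 with scaling on shared probe sets or the median over probe sets. With both signals at the filter, chosen after seeing the data, it was 1 and the number lower was 3. On chip B alone, with 5 members, the number lower in OSNs than in brain was 2. The number higher in residual epithelium than in brain was 1 with the median over probe sets and on either chip alone, and 0 without shared suffixes; the number lower was 2 on chip B alone. These follow from fewer members or another probe set being used, except under shared scaling, where the cause was not tested. On chip A alone Grk5 had a log2 ratio of OSNs over brain of -0.42. Signals near the floor limit Grk3, Arrb1 and Camk2b, whose OSN ratios are bounds or close to them.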
